A study of Mus musculus with 10 samples.

Results

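The messenger RNAs made from the mitochondrial genome were examined in the hippocampus of APP/PS1 mice, taken as every row of the expression table whose symbol starts with mt-. This rule found 13 of the 31510 rows, and all 13 are protein-coding genes. Of the 37 genes that GENCODE M21 places on the mouse mitochondrial chromosome, 13 code for proteins, 2 for ribosomal RNAs and 22 for transfer RNAs. The 2 ribosomal RNAs and the 22 transfer RNAs have 0 rows in the table and were not analysed here. The table also has rows for 0 of 354 other ribosomal RNA genes, 0 of 2198 microRNA genes and 0 of 1480 small nucleolar RNA genes. It has rows for 5065 of 5843 long intergenic noncoding RNA genes. All 13 protein-coding rows had a value above 0 in every library and passed the filter on low values.

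The AAV8-irisin group held 5 mice given AAV8-Irisin-FLAG, a vector for tagged irisin, and the AAV8-GFP group held 5 mice given AAV8-GFP, a vector for green fluorescent protein. Irisin is the secreted part of the protein that Fndc5 encodes. All 10 mice were male APP/PS1 animals, a transgenic strain in which a mutant human amyloid precursor protein and a mutant presenilin are driven by a mouse prion promoter, so mice of both groups carried the transgenes. Vector went into a tail vein when the mice were 8 months old, a way of delivery meant for the liver, and hippocampi were taken 2 months after that. No group without amyloid transgenes or without vector was part of these samples.

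The mitochondrial genome is a small circle that is transcribed from both strands into long precursors. Transfer RNAs that lie between most of the genes are cut out of these precursors, which frees the messenger and ribosomal RNAs. Each messenger codes for a core subunit of the respiratory chain or of ATP synthase, the machines of oxidative phosphorylation that supply most ATP in neurons. All other subunits of these complexes, and every protein that transcribes, cuts, tails and translates mitochondrial RNA, are encoded in the nucleus. Messengers of the same strand start out in a shared precursor, and unequal levels among them are known to come largely from processing and decay.

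These libraries were made from RNA captured on oligo(dT), so the poly(A) tail of a transcript bears on how well it is seen. In mitochondria the tail also has a part in the code, because some genes end before their stop codon is complete and the tail adds the missing letters. The ends of the annotated transcripts in GENCODE M21, on mm10, are shown for this reason, 5′ to 3′ in the sense of each gene, with the stop codon or its first letter in capitals. In 10 of the 13 genes the stop codon is complete, and in mt-Co3, mt-Nd4 and mt-Cytb the gene stops at a single T.
mt-Nd1: gcgggagtaccaccatacataTAG
mt-Nd2: ctagccccccaactaattaccTAG
mt-Co1: ccaacctatgtaaaagtaaaaTAA
mt-Co2: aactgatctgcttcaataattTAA
mt-Atp8: cctcattcattaccccaacaaTAA
mt-Atp6: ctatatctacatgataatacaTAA
mt-Co3: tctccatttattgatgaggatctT
mt-Nd3: aaaggattagaatgaacagagTAA
mt-Nd4l: aatctcaacctactacaatgcTAA
mt-Nd4: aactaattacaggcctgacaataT
mt-Nd5: ttatactcaattaatctcgagTAA
mt-Nd6: attatcgagattactcgagatTAA
mt-Cytb: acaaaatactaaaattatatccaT

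On mm10 the 13 genes lie between base 2751, the start of mt-Nd1, and base 15288, the end of mt-Cytb, of the mitochondrial chromosome. All but mt-Nd6 are annotated on the plus strand, and their lengths run from 204 bases for mt-Atp8 to 1824 for mt-Nd5. The highest of them per length, mt-Co1, lies at chrM:5328-6872 and the lowest, mt-Nd6, at chrM:13552-14070. Some of the genes share bases, which bears on how reads are assigned to them. The last 43 bases of mt-Atp8 are the first 43 of mt-Atp6, at chrM:7927-7969 on the plus strand. In the stretch below the start codon of mt-Atp6 and the stop codon of mt-Atp8 are in capitals. mt-Nd4l and mt-Nd4 share 7 bases on the plus strand, shown in capitals within chrM:10155-10185.
mt-Atp8 and mt-Atp6: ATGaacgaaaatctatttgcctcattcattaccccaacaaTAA
mt-Nd4l and mt-Nd4: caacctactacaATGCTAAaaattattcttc
mt-Atp6 and mt-Co3 share 1 base. mt-Nd5 and mt-Nd6, which are read from opposite strands, share 14 bases at chrM:13552-13565. How reads over these bases were counted, and whether the counting used strand, is not given in the sources used here.

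Copies of mitochondrial sequence in the nuclear genome are a second limit on what a mitochondrial row holds. Among the GENCODE M21 transcripts outside the mitochondrial genome, pseudogenes that match at least 98% of bases over at least 90% of the gene were found for 5 of the 13 genes, with identities of 99.7% to 100%. For mt-Co2, mt-Atp6, mt-Co3 and mt-Nd4l the match is 100%, to the chromosome 1 pseudogenes Gm28661, Gm10925, Gm28437 and Gm10222. For mt-Nd3 the copy Gm28438 has 1 mismatch. mt-Nd4 matches Gm28439 at 100% over 63.6% of its length. The table has no row for any of these 6 pseudogenes. This is not particular to them, since it has rows for 0 of 9931 processed and 2 of 2637 unprocessed pseudogenes of GENCODE M21. Reads of the copies cannot be told apart here from reads of the mitochondrial genes.

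The mitochondrial messengers held 13 of the 14 highest levels per length among the rows of these oligo(dT)-captured libraries. Values are the authors' DESeq2 normalised counts, divided here by gene length in kilobases (kb) where genes are compared with each other. Whether the deposited values already carry a correction for gene length is not given in the sources used here, and a value per kb takes it that they do not. Among 17330 filtered genes with a length in GENCODE M21, the 13 held ranks 1, 2 and 4 to 14. Lengths are those of all annotated exons together, which can lower the rank of nuclear genes that have rarely used exons. The 1 nuclear gene among the first 14 was Bc1, a short noncoding RNA of neuronal dendrites, at 228497 normalised counts per kb over all 10 libraries, named here after its value was seen. Below them came Cpe at 32432 normalised counts per kb, also named after its value was seen, against 43285 for the lowest mitochondrial messenger, mt-Nd6.

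The 3 core subunits of complex IV, cytochrome c oxidase, had the highest levels along with the subunits of ATP synthase. mt-Co1, which carries the oxygen-reducing haem and copper centre, had 328926 ± 9768 normalised counts per kb in AAV8-irisin and 337886 ± 33374 in AAV8-GFP (SD, n = 5 each, as for all such values). mt-Co2, which takes electrons from cytochrome c, had 251731 ± 9872 normalised counts per kb in AAV8-irisin and 261747 ± 21934 in AAV8-GFP. mt-Co3, the third core subunit, had 223055 ± 7901 in AAV8-irisin and 227838 ± 18763 in AAV8-GFP on the same scale. Between mt-Co2 and mt-Co3 lay mt-Atp6, the part of ATP synthase that conducts protons, at 223128 ± 6574 in AAV8-irisin and 232010 ± 22319 in AAV8-GFP. Its order with mt-Co3 was not fixed: mt-Atp6 was above mt-Co3 per kb in 8 of 10 libraries and the means differed by less than their SDs.

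The order of the other genes held in each library. Each gene of the ranking was above the next in 10 of 10 libraries, apart from mt-Atp6 and mt-Co3. The small ATP synthase subunit gene mt-Atp8 came next below mt-Co3, at 185397 ± 4421 normalised counts per kb in AAV8-irisin and 189015 ± 22450 in AAV8-GFP. mt-Cytb, the catalytic subunit of complex III, followed at 143470 ± 4060 in AAV8-irisin and 148938 ± 15572 in AAV8-GFP.

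The 7 subunits of complex I, the NADH dehydrogenase, filled the lower 7 places. mt-Nd1, at the junction of its membrane and peripheral arms, had 133149 ± 2537 normalised counts per kb in AAV8-irisin and 137238 ± 16038 in AAV8-GFP. The proton-pumping subunit gene mt-Nd4 had 112334 ± 3253 in AAV8-irisin and 115804 ± 12517 in AAV8-GFP, and its neighbour mt-Nd4l had 98076 ± 2480 in AAV8-irisin and 98388 ± 15686 in AAV8-GFP. mt-Nd2, another pumping subunit, had 79238 ± 1792 normalised counts per kb in AAV8-irisin and 80931 ± 9624 in AAV8-GFP.

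The last 3 places were those of mt-Nd3, mt-Nd5 and mt-Nd6. mt-Nd3 had 60253 ± 2428 normalised counts per kb in AAV8-irisin and 61317 ± 6582 in AAV8-GFP. mt-Nd5, the largest subunit of the membrane arm, had 54770 ± 1009 in AAV8-irisin and 55365 ± 9730 in AAV8-GFP. mt-Nd6, the only protein-coding gene read from the other strand, had 42667 ± 1487 in AAV8-irisin and 43903 ± 4626 in AAV8-GFP. mt-Co1 was 7.70 times as high as mt-Nd6 per length over the 10 libraries. In human cells the ND6 messenger is known to lack a poly(A) tail, and what part the capture on oligo(dT) has in its low level here was not tested.

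**Figure D1:**
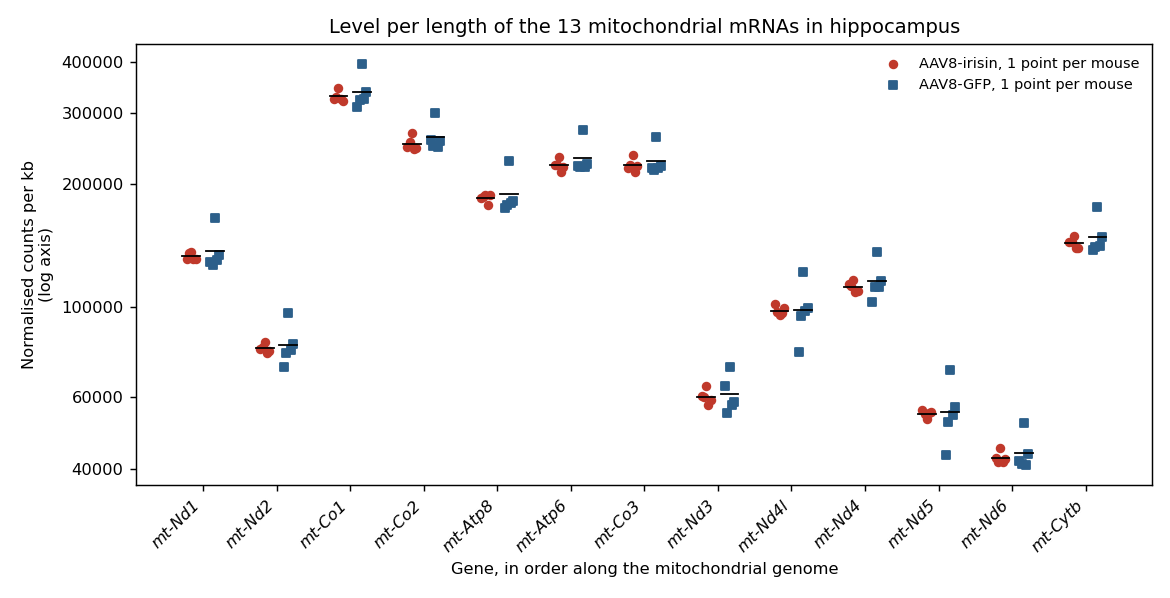
Level per length of the 13 mitochondrial messengers (normalised counts per kb, log axis) in gene order along the mitochondrial genome, with 1 point per mouse and the group mean as a bar. The levels run from 43285 (mt-Nd6) to 333406 (mt-Co1) normalised counts per kb over all libraries, and in every gene the highest point is an AAV8-GFP mouse.

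Rows of genes that lie on a shared messenger had unequal values per length. The ratio of mt-Atp8 to mt-Atp6 per kb was 0.831 ± 0.0167 in AAV8-irisin and 0.813 ± 0.0192 in AAV8-GFP, and that of mt-Nd4l to mt-Nd4 was 0.874 ± 0.0358 in AAV8-irisin and 0.846 ± 0.0534 in AAV8-GFP. In each case the gene at the 5′ side had the lower value, and it is also the shorter gene. These are ratios of row values and not of separate RNAs. The genes of each pair share bases, and nuclear copies at 100% identity cover them unequally. The cover is 99.6% for mt-Atp6, 21.1% for mt-Atp8, 99.0% for mt-Nd4l and 63.6% for mt-Nd4. The part of read assignment and of the division by length in these ratios was not tested.

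Nuclear genes for subunits of the same complexes had far lower levels per length. The 37 nuclear complex I genes had a median of 1505 normalised counts per kb and a highest value of 3885, for Ndufb9, where the 7 mitochondrial ones ran from 43285 to 135194. The 11 nuclear genes of complex IV had a median of 3703 and the 16 of ATP synthase a median of 2295. The lengths of nuclear genes are those of all annotated exons together, which lowers their level per kb where a long exon is rarely used.

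The comparison of AAV8-irisin with AAV8-GFP asks whether irisin made in the periphery changed the RNA of the APP/PS1 hippocampus, and here whether it changed the mitochondrial messengers. None of the 13 differed between the groups at the threshold of an adjusted p under 0.05, by limma across 17556 genes with Benjamini-Hochberg adjustment, and 0% of all tested genes were called. In 11 of the 13 the mean log2 value was lower in AAV8-irisin, against 49.5% of all tested genes. All 13 were highest in the library of AAV8-GFP mouse 3, against 11.8% of all tested genes. Without that mouse, 12 of the 13 had a higher mean in AAV8-irisin, and the direction of 10 of the 13 turned. In that setting 49.5% of all tested genes had a lower mean in AAV8-irisin. Since AAV8-GFP mouse 3 was highest in all 13, leaving it out could only raise each difference. Without AAV8-GFP mouse 1, the lowest of the libraries in 7 of the 13, all 13 had a lower mean in AAV8-irisin. In such bulk samples fewer mitochondria-rich cells and less mitochondrial RNA per cell cannot be told apart.

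The share of the mitochondrial messengers shows this most simply. The 13 rows held 4.86%, 4.84%, 5.06%, 4.76% and 4.78% of the summed normalised counts in AAV8-irisin mice 1 to 5, and 4.70%, 4.74%, 5.78%, 4.76% and 4.94% in AAV8-GFP mice 1 to 5. AAV8-GFP mouse 3 stood above the other 9 mice, which lay between 4.70% and 5.06%. The share averaged 4.86% ± 0.121 in AAV8-irisin and 4.98% ± 0.454 in AAV8-GFP (SD, n = 5 each). With AAV8-GFP mouse 3 left out, the AAV8-GFP mean was 4.79% ± 0.106 (SD, n = 4), and the difference between the groups was 0.0756 percentage points in place of −0.123. With AAV8-GFP mouse 1 left out instead, the difference was −0.196 percentage points. No test was made on this sum.

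**Figure D2:**
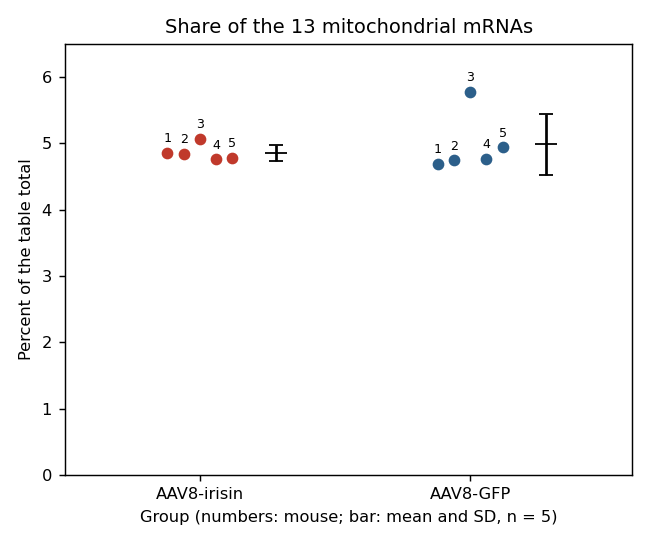
Percent of the table total in the 13 mitochondrial messengers, with 1 numbered point per mouse and the mean with SD (n = 5) beside each group. The 5 AAV8-irisin mice lie between 4.76% and 5.06%, and AAV8-GFP mouse 3 lies at 5.78%, above the other 4 AAV8-GFP mice.

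Among complex IV genes, mt-Co1 had 501090, 506740, 534376, 502312 and 496432 normalised counts in AAV8-irisin mice 1 to 5, against 478743, 498757, 610488, 502285 and 519900 in AAV8-GFP mice 1 to 5. The groups overlapped, with AAV8-GFP mice at both ends of the range. Its log2 difference, AAV8-irisin minus AAV8-GFP, was −0.034 (standard error, SE, 0.053; 95% interval −0.15 to 0.081; limma, adjusted p = 0.958), and 0.024 without AAV8-GFP mouse 3.

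mt-Co2 had 168911, 173446, 183436, 166943 and 168185 normalised counts in AAV8-irisin mice 1 to 5, and 175744, 169844, 205403, 169508 and 174677 in AAV8-GFP mice 1 to 5. The AAV8-irisin mice 1, 4 and 5 were under all AAV8-GFP mice, and the other AAV8-irisin mice were among them. The log2 difference was −0.053 with all libraries (SE 0.049; limma, adjusted p = 0.942) and −0.0028 without AAV8-GFP mouse 3, where mt-Co2 was the only gene of the 13 still with a lower mean in AAV8-irisin. mt-Co3 had a log2 difference of −0.028 (limma, adjusted p = 0.961), with 167921 to 184793 normalised counts in AAV8-irisin and 170314 to 204856 in AAV8-GFP.

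mt-Cytb had 165038, 165510, 170743, 159378 and 159977 normalised counts in AAV8-irisin mice 1 to 5, and 158389, 160621, 201314, 161829 and 169770 in AAV8-GFP mice 1 to 5. Here too the highest and the lowest of the 10 were AAV8-GFP mice. The log2 difference was −0.049 (SE 0.055; limma, adjusted p = 0.949), and 0.013 without AAV8-GFP mouse 3.

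In the ATP synthase genes, as in mt-Co2 and mt-Co3, the AAV8-GFP mice other than mouse 3 lay close together. mt-Atp6 had 152458, 152231, 158659, 146370 and 150031 normalised counts in AAV8-irisin mice 1 to 5, and 151000, 150685, 185102, 149989 and 153217 in AAV8-GFP mice 1 to 5. The coefficient of variation (CV, the SD as a percent of the mean) of mt-Atp6 was 2.95% in AAV8-irisin and 9.62% in AAV8-GFP. In AAV8-GFP without mouse 3 it was 0.923%, beside 0.786% for mt-Co3 and 1.87% for mt-Co2. For mt-Atp6 the differences between groups follow. The log2 difference was −0.052 with all libraries (SE 0.052; limma, adjusted p = 0.942) and 0.0065 without that mouse (limma, adjusted p = 0.991).

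mt-Atp8 had 37782, 38001, 38513, 36310 and 38499 normalised counts in AAV8-irisin mice 1 to 5, and 35736, 36323, 46690, 36801 and 37245 in AAV8-GFP mice 1 to 5. With AAV8-GFP mouse 3 set aside, 4 of the 5 AAV8-irisin mice lay above every other AAV8-GFP mouse. The log2 difference was then 0.050 (SE 0.028; 95% interval −0.0094 to 0.11; limma, adjusted p = 0.970), and −0.021 with all libraries (SE 0.060; limma, adjusted p = 0.971).

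The complex I genes included those with the widest spread. mt-Nd5 had 101932, 99454, 97030, 100267 and 100817 normalised counts in AAV8-irisin mice 1 to 5, and 78975, 95126, 128013, 99137 and 103681 in AAV8-GFP mice 1 to 5. The 5 AAV8-irisin mice all lay within the range of the AAV8-GFP mice, whose mouse 1 was lowest and mouse 3 highest. The CV was 1.84% in AAV8-irisin and 17.6% in AAV8-GFP, with means of 99900 ± 1840 normalised counts in AAV8-irisin and 100986 ± 17748 in AAV8-GFP. The difference of the mean log2 values was 0.0017 (95% interval −0.19 to 0.19; limma, adjusted p = 0.999), opposite in sign to that of the means of normalised counts. Without AAV8-GFP mouse 3 it was 0.092. It turned negative when certain other single mice were left out. Leaving out mouse 1 or 5 of AAV8-irisin gave −0.0056 or −0.0016, and leaving out mouse 1, 2 or 4 of AAV8-GFP gave −0.083, −0.015 or −0.00060.

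In mt-Nd4l the same AAV8-GFP mice stood at the ends. It had 30167, 28849, 28327, 28719 and 29580 normalised counts in AAV8-irisin mice 1 to 5, and 23094, 28227, 36159, 29056 and 29570 in AAV8-GFP mice 1 to 5. AAV8-GFP mouse 1 was again lowest and mouse 3 highest, with a log2 difference of 0.0097 (limma, adjusted p = 0.989), −0.072 without AAV8-GFP mouse 1 and 0.090 without AAV8-GFP mouse 3. Leaving out mouse 1 of AAV8-irisin gave −0.0030. mt-Nd4, the partner of mt-Nd4l on their shared messenger, had a milder pattern, with 149858 to 161035 normalised counts in AAV8-irisin and 141953 to 188218 in AAV8-GFP.

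mt-Nd3 differed from these in AAV8-GFP mouse 1. It had 21009, 20910, 22314, 20023 and 20585 normalised counts in AAV8-irisin mice 1 to 5, and 22303, 19110, 24870, 20058 and 20350 in AAV8-GFP mice 1 to 5. AAV8-GFP mouse 1 was here the second highest of its group and AAV8-GFP mouse 2 the lowest of all. mt-Nd3 had a log2 difference of −0.020 (limma, adjusted p = 0.971), 0.037 without AAV8-GFP mouse 3 and −0.0022 without AAV8-GFP mouse 1.

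The other complex I genes had log2 differences of −0.037 for mt-Nd1, −0.023 for mt-Nd2, −0.038 for mt-Nd4 and −0.036 for mt-Nd6. mt-Nd6, from the other strand, had 22088, 21571, 23456, 21582 and 22023 normalised counts in AAV8-irisin mice 1 to 5, and 21713, 21381, 26975, 21252 and 22607 in AAV8-GFP mice 1 to 5. Like the 12 genes of the opposite strand it was highest in AAV8-GFP mouse 3, at 1.24 times the mean of the other 4 AAV8-GFP mice.

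**Figure D3:**
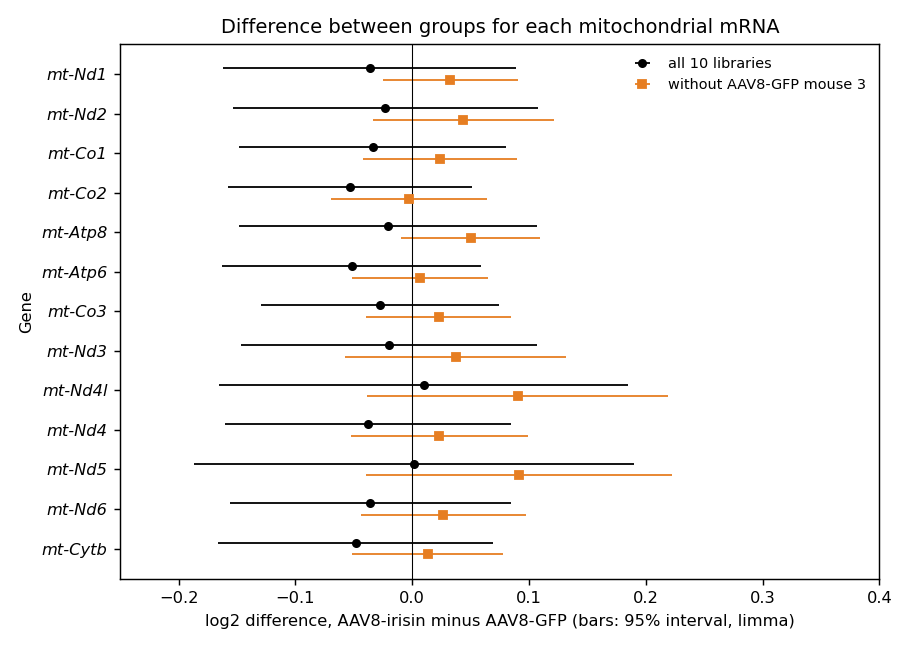
Log2 difference of each mitochondrial messenger, AAV8-irisin minus AAV8-GFP, with its 95% interval from limma, for all 10 libraries (black circles) and without AAV8-GFP mouse 3 (orange squares). Every interval includes 0 in both settings, and 11 of 13 black points lie left of 0 where 12 of 13 orange points lie right of it.

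Over the 13 genes the median log2 difference was −0.034, beside 0.00099 over all 17556 genes tested. Without AAV8-GFP mouse 3 these medians were 0.026 over the 13 genes and 0.0012 over all genes tested. Without AAV8-GFP mouse 1 they were −0.064 over the 13 genes and −0.00021 over all genes tested. At an unadjusted p under 0.05 there were 0 of the 13 genes, against 4.49% of all tested genes, and the groups overlapped in each of the 13, where they did not overlap in 0.803% of all tested genes. The widest of the 13 intervals, that of mt-Nd5, ran from −0.19 to 0.19, and differences inside these intervals are not excluded with 5 mice a group. The intervals are not adjusted for the number of genes tested, so they do not mark the size of difference that would have been called.

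AAV8-GFP mouse 3 was high in all 13 genes by a similar factor. Its value was between 1.19 times (mt-Co3) and 1.36 times (mt-Nd5) the mean of the other 4 AAV8-GFP mice. Relative to each gene's median over the 10 libraries, the mean deviation of the 13 genes was 0.30 in this library on the log2 scale, and between −0.079 and 0.058 in the other 9.

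Much of the spread between mice was shared by the 13 genes, and AAV8-GFP mouse 3 was the largest part of it. The SD over the 10 libraries of a gene's log2 value had a median of 0.11, and of 0.028 once the mean deviation of each library was taken off. In 3 genes more was left: the SD was 0.094 after and 0.17 before for mt-Nd5, 0.088 after and 0.16 before for mt-Nd4l, and 0.074 after and 0.11 before for mt-Nd3. In these the widest remaining deviations were those of AAV8-GFP mouse 1. With its mean deviation of −0.079 taken off, mt-Nd5 still lay 0.26 and mt-Nd4l 0.25 below their medians, while mt-Nd3 lay 0.18 and mt-Co2 0.11 above theirs. AAV8-irisin mouse 3 had a smaller pattern of the same kind, with mt-Nd5 at −0.099, mt-Nd4l at −0.089 and mt-Nd3 at 0.047.

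**Figure D4:**
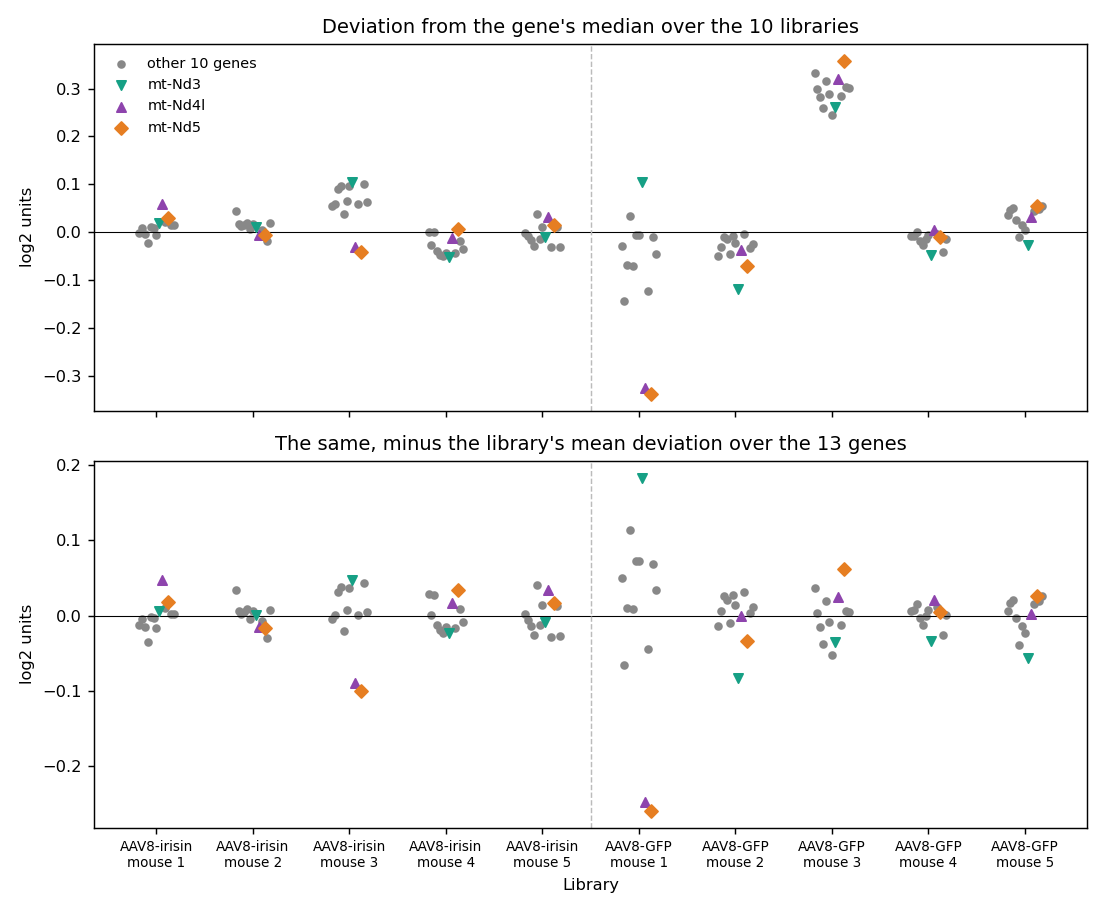
Top, log2 deviation of each of the 13 messengers from its median over the 10 libraries; bottom, the same minus the mean deviation of the library, with mt-Nd3, mt-Nd4l and mt-Nd5 marked. In the top panel the 13 genes of AAV8-GFP mouse 3 lie between 0.24 and 0.36, and in the bottom panel AAV8-GFP mouse 1 has mt-Nd5 at −0.26 and mt-Nd3 at 0.18.

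The composition of the mitochondrial messenger pool differed little between the groups. Complex IV genes made up 49.0% ± 0.427 of it in AAV8-irisin and 49.0% ± 0.604 in AAV8-GFP, and complex I genes 30.7% ± 0.364 in AAV8-irisin and 30.5% ± 0.771 in AAV8-GFP. ATP synthase genes made up 10.9% ± 0.103 in AAV8-irisin and 10.9% ± 0.205 in AAV8-GFP, and mt-Cytb 9.40% ± 0.0794 in AAV8-irisin and 9.49% ± 0.0766 in AAV8-GFP. These are shares of normalised counts, in which longer genes weigh more. Over all 10 mice mt-Nd5 had the widest range, from 5.34% to 5.88% in AAV8-irisin and from 4.77% to 6.05% in AAV8-GFP.

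Markers of several cell types moved with AAV8-GFP mouse 3. This library was the highest of the 10 in 6 of 6 astrocyte, 6 of 6 microglia and 4 of 5 endothelial markers, and the lowest in 6 of 6 oligodendrocyte and 5 of 5 ependymal markers, against 11.8% of all tested genes highest and 11.5% lowest. Summed normalised counts of the astrocyte markers ran from 157904 to 165538 in AAV8-irisin and from 151018 to 191299 in AAV8-GFP, with 191299 in mouse 3. Those of the microglia markers ran from 13059 to 16267 in AAV8-irisin and from 13577 to 18344 in AAV8-GFP, with the highest again in mouse 3. Those of the endothelial markers ran from 4771 to 5945 in AAV8-irisin and from 5059 to 6792 in AAV8-GFP.

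The oligodendrocyte markers summed to 117582 to 140476 in AAV8-irisin and 101509 to 135382 in AAV8-GFP, with the lowest in mouse 3, and the ependymal markers to 428 to 645 in AAV8-irisin and 237 to 592 in AAV8-GFP, also lowest in mouse 3. Neuron markers summed to 339603 to 358367 in AAV8-irisin and 315521 to 385816 in AAV8-GFP, with mouse 1 lowest and mouse 3 highest. Only 3 of the 8 neuron markers were highest in mouse 3, and their median log2 deviation there was 0.0029. Nuclear-retained RNAs, which bear on RNA quality and the nuclear share, summed to 308936 to 327024 in AAV8-irisin and 311600 to 351762 in AAV8-GFP, and 5 of 7 were highest in mouse 3. No gene of the lists in this and the preceding paragraph was at 0 in any library. The part of cell makeup or of RNA quality in the mitochondrial values of this library was not tested.

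Abundant genes of the astrocyte and oligodendrocyte lists show how far this library lay from the rest. For astrocytes, Slc1a2 had 100414 and Gfap 31554 normalised counts in AAV8-GFP mouse 3, against 73263 to 86911 and 24505 to 28514 in the other AAV8-GFP mice. For oligodendrocytes, Mbp had 49737 normalised counts in that mouse, against 56655 to 66896 in the other AAV8-GFP mice. None of these passed the test (limma, adjusted p of at least 0.942 each), with log2 differences of −0.014 for Slc1a2, −0.15 for Gfap and 0.081 for Mbp. Without AAV8-GFP mouse 3 these were 0.041 for Slc1a2, −0.096 for Gfap and 0.012 for Mbp, and without AAV8-GFP mouse 1 that of Slc1a2 was −0.073.

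The other named markers did not pass the test either, with an adjusted p by limma of at least 0.942 each. Log2 differences were −0.034 for Csf1r of microglia, −0.060 for Flt1 and 0.14 for Slco1a4 of endothelium, and 0.14 for Foxj1 and 0.20 for Rsph1 of ependyma. Neuronal Camk2a had −0.041 and Snap25 0.0090, and the nuclear-retained Meg3 had −0.037 and Snhg11 −0.027. Single mice decided most of these. Without AAV8-GFP mouse 3 the values were 0.035 for Csf1r, −0.0056 for Flt1, 0.22 for Slco1a4, −0.064 for Foxj1, 0.11 for Rsph1, 0.022 for Camk2a, 0.024 for Snap25, −0.0025 for Meg3 and 0.0084 for Snhg11. Without AAV8-GFP mouse 1 they were −0.13 for Csf1r, −0.10 for Flt1, 0.0039 for Slco1a4, 0.26 for Foxj1, −0.12 for Camk2a, −0.0057 for Snap25 and −0.044 for Snhg11. Malat1, another nuclear-retained RNA, named after its values were seen, was highest in AAV8-GFP mouse 1 at 57143 normalised counts and next in AAV8-irisin mouse 3 at 53226, against 41062 to 45747 in the other 8 mice. These were the mice in which mt-Nd5 and mt-Nd4l lay low against the other mitochondrial messengers. The list of nuclear-retained RNAs did not move with Malat1 there. The median log2 deviation of its 7 genes was 0.0055 in AAV8-GFP mouse 1 and −0.086 in AAV8-irisin mouse 3. In AAV8-GFP mouse 1, 1 of the 7 was highest and 2 were lowest, and in AAV8-irisin mouse 3 Meg3 and Snhg11 were lowest. The part of RNA quality in the pattern of mt-Nd5 and mt-Nd4l was not tested.

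Markers of red cells and choroid plexus had their highest values in libraries other than AAV8-GFP mouse 3. Red-cell markers summed to 1669 to 3211 in AAV8-irisin and 1586 to 4502 in AAV8-GFP, with the lowest value in AAV8-GFP mouse 3 and the highest in AAV8-GFP mouse 4. Choroid plexus markers summed to 987 to 2677 over the 6 tested genes in AAV8-irisin, with the highest in mouse 4, and to 805 to 1041 in AAV8-GFP. Of the 8 listed, Slc4a5 was at 0 in 2 libraries. Hbb-bs and Hba-a2 of red cells had log2 differences of −0.53 and −0.65, and Ttr and Kl of choroid plexus had 2.10 and 0.11, none past the threshold (limma, adjusted p = 0.942 each). Without AAV8-GFP mouse 3 they were −0.76 for Hbb-bs, −0.92 for Hba-a2, 1.91 for Ttr and 0.12 for Kl. All 5 red-cell markers had a lower mean in AAV8-irisin, against 49.5% of all tested genes. Other lists also went 1 way. All 6 microglia markers had a lower mean in AAV8-irisin. All 6 tested choroid plexus, 5 ependymal and 6 oligodendrocyte markers had a higher one. Without AAV8-GFP mouse 3, 3 microglia, 2 ependymal and 2 oligodendrocyte markers had a lower mean, and the red-cell and choroid plexus lists still went 1 way. Of the 5 red-cell markers, 3 had an unadjusted p under 0.05 by limma, against 4.49% of all tested genes. By the exact permutation test the unadjusted p was 0.111 for Hba-a2 and 0.135 for Hbb-bs. The 5 genes mark the same cells in the same libraries, so they do not count as separate. Kl had 0.039 without AAV8-GFP mouse 1. Ttr was at 1528 normalised counts in AAV8-irisin mouse 4, against 12.3 to 162 in the other AAV8-irisin mice and 10.1 to 48.3 in AAV8-GFP mice. Markers of the labelled tissue were present in all libraries, with 3417 to 4505 normalised counts of Prox1, a factor of dentate granule cells, and 3238 to 4562 of Wfs1, which marks CA1 neurons.

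**Figure D5:**
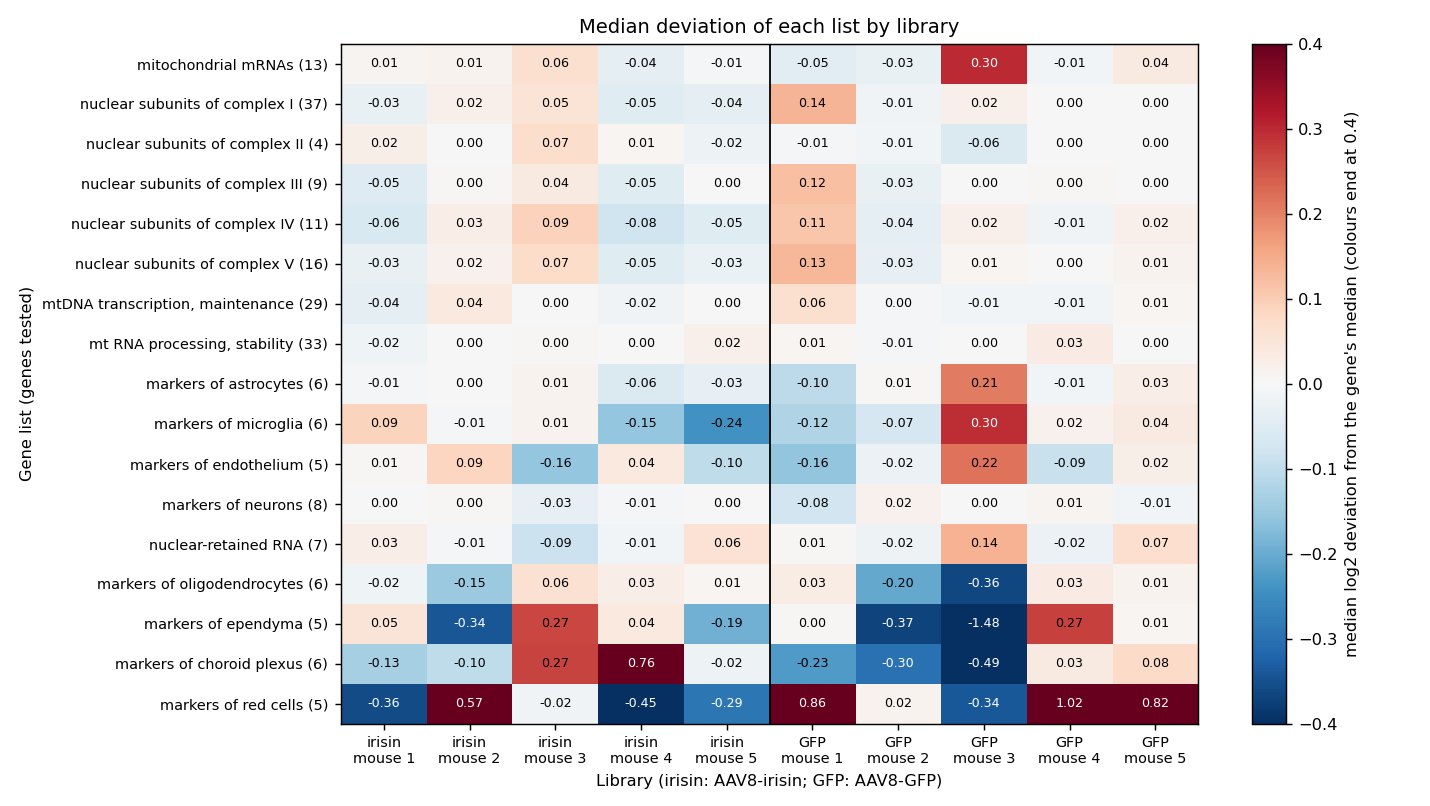
Median log2 deviation of each gene list from the genes' medians over the 10 libraries, by library, with AAV8-irisin mice left of the line and AAV8-GFP mice right of it; the number of genes is in brackets and colours end at 0.4. The mitochondrial messengers stand at 0.30 in AAV8-GFP mouse 3, where nuclear subunits of complex I stand at 0.019, and those subunits stand at 0.14 in AAV8-GFP mouse 1.

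The nuclear partners of the mitochondrial subunits were not high in AAV8-GFP mouse 3. Of 77 tested nuclear genes of oxidative phosphorylation, 3 were highest in that library (3.90%), and their summed normalised counts there were 309833, within ranges of 298613 to 319982 in AAV8-irisin and 304599 to 329798 in AAV8-GFP. It was AAV8-GFP mouse 1 that had the most nuclear genes at their highest value, 48 of 77 (62.3%), against 19.7% of all tested genes. In that library the 13 mitochondrial genes had a median deviation of −0.045 and the 77 nuclear ones of 0.12.

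Between the groups, 0 of the 77 nuclear genes were called higher or lower by limma, and 55 of them had a lower mean in AAV8-irisin, against 49.5% of all tested genes. Their median log2 difference was −0.026, and −0.0033 without AAV8-GFP mouse 1. Medians were −0.026 for complex I, 0.025 for complex II, −0.046 for complex III, −0.038 for complex IV and −0.030 for ATP synthase. Without AAV8-GFP mouse 1 they were −0.0017 for complex I, 0.012 for complex II, −0.0061 for complex III, −0.019 for complex IV and −0.00016 for ATP synthase. Without AAV8-GFP mouse 3 they were −0.032 for complex I, 0.015 for complex II and −0.040 for complex III. For complex IV the median was then −0.042, and for ATP synthase −0.035. At an unadjusted p under 0.05 there were 3 of the 77, against 4.49% of all tested genes, a share no higher than the background. All 3 had lower means in AAV8-irisin and belong to complex I, the largest list.

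Of these 3, Ndufv1, the subunit that takes electrons from NADH, had 4271, 4569, 4500, 4404 and 4413 normalised counts in AAV8-irisin mice 1 to 5, and 4719, 4890, 4674, 4795 and 4592 in AAV8-GFP mice 1 to 5. No AAV8-irisin mouse reached the range of the AAV8-GFP mice. The log2 difference was −0.095 (SE 0.032; limma, adjusted p = 0.942), so the gene was not called. Ndufv3, an accessory subunit of the same module, had 1506 ± 22.3 normalised counts in AAV8-irisin and 1647 ± 95.5 in AAV8-GFP, also without overlap (limma, adjusted p = 0.942). The groups did not overlap in 0.803% of all tested genes. Ndufa3, named after its values were seen, had 2348 ± 117 normalised counts in AAV8-irisin and 2542 ± 148 in AAV8-GFP.

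In the other complexes the genes of smallest unadjusted p did not pass either (limma, adjusted p = 0.942 each). Log2 differences were 0.042 for Sdha and 0.038 for Sdhb of complex II, the complex with no mitochondrial gene. They were −0.082 for Uqcr11 and −0.055 for Uqcrb of complex III. For complex IV they were −0.081 for Cox8a and −0.073 for Cox4i1, and for ATP synthase −0.11 for Atp5j2 and −0.051 for Atp5g1. AAV8-GFP mouse 1 moved most of these: without it they were 0.013 for Sdha, −0.042 for Uqcr11, −0.046 for Cox8a, −0.029 for Cox4i1, −0.053 for Atp5j2 and −0.025 for Atp5g1. Without AAV8-GFP mouse 3 they were 0.038 for Sdha, −0.083 for Uqcr11 and −0.073 for Cox8a. Cox4i1 then had −0.067, Atp5j2 −0.12 and Atp5g1 −0.056.

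Genes that copy, transcribe and maintain mitochondrial DNA are all nuclear. Of 29 tested, 0 were called, 15 had a higher and 14 a lower mean in AAV8-irisin, and the median log2 difference was 0.012. Of these, 2 had an unadjusted p under 0.05, Tfam and Mterf2, against 4.49% of all tested genes. Tfam, which packs mitochondrial DNA and starts its transcription, had 1099, 829, 876, 960 and 908 normalised counts in AAV8-irisin mice 1 to 5, and 1079, 1144, 1065, 1081 and 1215 in AAV8-GFP mice 1 to 5. AAV8-irisin mice 2 to 5 were below every AAV8-GFP mouse and AAV8-irisin mouse 1 was among them. The log2 difference of −0.26 (SE 0.070; 95% interval −0.41 to −0.11) did not pass the threshold (limma, adjusted p = 0.942). It was −0.28 without AAV8-GFP mouse 3 (limma, adjusted p = 0.970) and −0.27 without AAV8-GFP mouse 1.

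Polrmt, the mitochondrial RNA polymerase, had 1114 ± 36.3 normalised counts in AAV8-irisin and 1154 ± 186 in AAV8-GFP. Its log2 difference was −0.036 with all libraries, 0.034 without AAV8-GFP mouse 1 and −0.069 without AAV8-GFP mouse 3. Tfb2m, the factor that melts the promoter, had 794 ± 71.5 in AAV8-irisin and 747 ± 15.1 in AAV8-GFP. Mterf2, of the family of mitochondrial termination factors, had 360 ± 46.0 in AAV8-irisin and 312 ± 24.1 in AAV8-GFP (limma, adjusted p = 0.942).

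Genes that process and stabilise mitochondrial RNA divided evenly. Of 33 tested, 0 were called, 16 had a higher and 17 a lower mean in AAV8-irisin, and the median log2 difference was −0.0033. None had an unadjusted p under 0.05. Lrpprc, which with its partner Slirp protects mitochondrial messengers from decay, had 2903 ± 147 normalised counts in AAV8-irisin and 2817 ± 240 in AAV8-GFP. Mtpap, the mitochondrial poly(A) polymerase, had 787 ± 63.0 in AAV8-irisin and 765 ± 54.4 in AAV8-GFP. Elac2, which cuts the 3′ ends of transfer RNAs out of the precursor, had 1006 ± 22.9 in AAV8-irisin and 1076 ± 56.2 in AAV8-GFP, and Trmt5, a transfer RNA methyltransferase, had 254 ± 23.0 in AAV8-irisin and 296 ± 41.7 in AAV8-GFP. The log2 differences of these 4 genes ran from −0.22 for Trmt5 to 0.047 for Lrpprc, and each had an adjusted p of at least 0.942 by limma. Without AAV8-GFP mouse 1 Lrpprc had −0.011 and Mtpap 0.0058.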

How the data were processed

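Oligo(dT)-captured RNA of 10 hippocampi was sequenced with NEBNext Ultra libraries, per the labels' protocols. The authors used bcl2fastq 2.17, DESeq2 and the build mm10, per the submitters' processing notes. The aligner, the annotation, the counting tool, its treatment of multiply mapped reads and its strand setting are not given in the sources used here. Values in the authors' deposited table are a signal, named there as DESeq2 normalised counts. Sums per library were 35284321 to 36623029 and between 22434 and 23035 genes were above 0. Per the deposited values, whole reads could not be recovered: 49.9% to 72.7% of low values lay within 0.1 reads of a multiple of the most frequent low value, so no count test was run and depth is not known exactly. Mitochondrial values ran from 19110 to 610488, and the spread between mice, not counting, limits their precision.

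The 17556 genes that reached 10 in 5 or more of the 10 libraries were tested on log2(value + 1) with limma 3.58.1 in R 4.3.3 (trend, two-sided, Benjamini-Hochberg, threshold 0.05). Differences subtract AAV8-GFP from AAV8-irisin on that scale, on which the changes of low genes are understated. The titles name separate mice. The test was checked on simulated data. Alternatives covered pseudocount, filter, scaling, limma settings, permutation, a replicate block and each mouse left out. Gene positions, lengths and transcripts are from GENCODE M21 (mm10), with 97.5% of symbols matched. Nuclear copies were searched with BLAST 2.17.0. The members and gene lists were chosen with earlier results of these data known. Named were the members, Tfam, Polrmt, Tfb2m, Lrpprc and Mtpap, the 2 genes of smallest p of each nuclear list, the 2 most abundant genes of each marker list (some are not reported here), and genes said in the text to be named after their values were seen. Of the 6 nuclear copies listed, 0 had a row. Usmg5 and 2010107E04Rik of ATP synthase were not analysed here, since no row has those symbols.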

Additional observations from a re-analysis of the deposited data

Results flagged for a closer look

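AAV8-GFP mouse 3 stood far above the other mice of its group in 7 of the 13 mitochondrial genes, measured as its gap to the next mouse over the range of the group, with a critical value of 0.710 for 5 samples. Its normalised counts were 158358 for mt-Nd1, 205403 for mt-Co2, 46690 for mt-Atp8, 185102 for mt-Atp6, 204856 for mt-Co3, 26975 for mt-Nd6 and 201314 for mt-Cytb. The share of its table total in the 13 genes, 5.78%, stood apart in the same way. In all tested genes this mouse stood apart at the high end in 0.684%. AAV8-irisin mouse 3 stood apart at the high end of its group in 2 genes, with 534376 normalised counts of mt-Co1 and 23456 of mt-Nd6, against 0.826% of all tested genes. About 1 in 20 groups is flagged by chance, and the 13 genes share their libraries, so these flags do not count as separate. The part of cell makeup or of RNA quality in them was not tested.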

How the results depend on the processing

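No mitochondrial gene and no gene of the 3 nuclear lists was called under any alternative, and 0 of all genes were called except without a filter on low values, where 1 was (Gm49383, listed at 0 in each AAV8-irisin mouse, mean 8.83 in AAV8-GFP, adjusted p by limma 0.0108). Mice with the same number came from different animals and their deviations correlated at −0.089 to 0.030, so the numbers do not pair them; with the replicate as a block 0 of 13 genes were called. The direction of 13 of 13 genes held under both pseudocounts and the 3 rescalings. The filters, limma without trend, the exact permutation test (smallest possible p 0.00794) and the block cannot move a log2 difference, so they bear on calls alone. Quantile normalisation gave 0.011 for mt-Co3 and 0.0094 for mt-Nd4, and 0 for mt-Co1, the highest gene of every library; array weights gave 0.0018 for mt-Nd3, −0.024 for mt-Nd4l and −0.032 for mt-Nd5. Leaving out each mouse in turn, log2 differences ran from −0.069 to 0.0065 for mt-Atp6, −0.046 to 0.050 for mt-Atp8, −0.064 to 0.024 for mt-Co1, −0.076 to −0.0028 for mt-Co2, −0.048 to 0.023 for mt-Co3, −0.073 to 0.013 for mt-Cytb, −0.063 to 0.033 for mt-Nd1, −0.067 to 0.044 for mt-Nd2, −0.058 to 0.037 for mt-Nd3, −0.079 to 0.023 for mt-Nd4, −0.072 to 0.090 for mt-Nd4l, −0.083 to 0.092 for mt-Nd5 and −0.060 to 0.026 for mt-Nd6; the high end of each is without AAV8-GFP mouse 3. The difference in share ran from −0.196 to 0.0756 percentage points. Without both AAV8-GFP mice 1 and 3, chosen after seeing the data, the values were 0.0058 for mt-Atp6, 0.040 for mt-Atp8, 0.0032 for mt-Co1, 0.0063 for mt-Co2, 0.023 for mt-Co3, 0.00047 for mt-Cytb, 0.027 for mt-Nd1, 0.0071 for mt-Nd2, 0.079 for mt-Nd3, 0.026 for mt-Nd6, 0.0087 for mt-Nd4l, 0.0092 for mt-Nd5 and −0.011 for mt-Nd4, and 1 of the 13 had an unadjusted p under 0.05 by limma. The cause of these turns of direction was not tested beyond the mice left out. The share of ribosomal RNA was not run, since the table has no such row.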
